A study of Mus musculus with 64 samples.

Results

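The core circadian clock genes described here are 10 genes named by symbol: the activators Arntl (also called Bmal1), Clock and Npas2, the repressors Per1, Per2, Per3, Cry1 and Cry2, the output factor Dbp and the nuclear receptor Nr1d1. They were taken as a fixed list of symbols, chosen with earlier results of these data known. All 10 were found among the 27179 Entrez identifiers of the count tables. RNA had been sequenced from striatum punches of 32 mice on the C57BL/6NJ background, 16 of Cyfip2 genotype N/N (labelled binge-prone) and 16 of genotype N/- (labelled binge-resistant), with 8 females and 8 males of each. N is the Cyfip2 allele that the C57BL/6N strain carries, the minus sign marks a null allele, and the sources used here do not say in which cells that allele is lost. All mice were 82 to 84 days old and were killed on Day 24 straight after 5 min on an elevated plus maze, a test of anxiety-like behaviour. Neither the hour of harvest nor a diet or training group is stated in the sources used here, and mice that differed in them cannot be told apart.

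The circadian clock of mammals is a feedback loop of transcription. ARNTL pairs with CLOCK or NPAS2 and drives transcription from E-boxes, the PER and CRY proteins then block that pair, and NR1D1 (REV-ERB alpha) represses Arntl in a second loop. DBP, an activator acting at D-boxes, carries the rhythm to other genes. In most tissues Arntl transcripts peak at the opposite phase of the day from those of Dbp, Nr1d1 and the Per genes, and the striatum holds such a clock.

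The motifs through which these genes act on each other were looked up in RefSeq promoter windows of GRCm38.p6, which run from 250 bases before to 50 bases after a start. Windows were found for 9 of the 10 genes, 13 windows in all, and Per2 had no entry. The stretches below are shown because they hold the E-box CACGTG, its variant CACGTT (read as AACGTG on the other strand) or the D-box TTANGTAA, which are in capitals, with 30 bases on each side where the window before the start allows. They are written 5′ to 3′ on the strand of the gene.
Per1, chr11:69098753-69098818, plus strand: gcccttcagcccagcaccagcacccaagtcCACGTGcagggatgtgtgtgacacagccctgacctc
Cry1, chr10:85185079-85185163, minus strand: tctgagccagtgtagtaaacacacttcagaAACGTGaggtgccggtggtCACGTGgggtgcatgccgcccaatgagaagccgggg
Cry2, chr2:92434200-92434265, minus strand: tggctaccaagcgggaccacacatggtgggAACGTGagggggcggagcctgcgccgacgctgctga
Nr1d1, chr11:98775378-98775435, minus strand: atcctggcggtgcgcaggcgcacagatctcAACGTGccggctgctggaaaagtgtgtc
Per3, chr4:151044786-151044900, minus strand: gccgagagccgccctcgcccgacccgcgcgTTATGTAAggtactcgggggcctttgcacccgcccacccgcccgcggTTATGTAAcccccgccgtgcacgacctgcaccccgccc

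The E-box was present in the windows of Per1 and Cry1, and in 7.15% of all 32851 promoter windows. The variant CACGTT was present in those of Cry1, Cry2 and Nr1d1, against 4.68% of all windows. Per3 held the D-box at 2 places, at positions -205 and -158 from its start, and 2.32% of all windows held at least 1. The hexamer AGGTCA, to which NR1D1 binds, was found in windows of Arntl, Clock and Per1 and in 16.3% of all windows. The cAMP response element TGACGTCA was in no member's window and in 1.79% of all. A member is named if any of its windows held the motif, whereas the shares are of single windows, so they are not on the same scale. Both strands were searched and no matches overlapped. The Per1 window belongs to a start inside the annotated gene. A match is a match of letters only, and its absence says nothing beyond these windows.

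The library of a mouse held 28.8 M to 33.8 M counts (M, mega), and the 10 genes had 589 to 7329 counts each per mouse, so counting error was small beside the spread between mice. Cyfip2 itself was at 509 to 653 CPM (counts per mega counts, TMM-scaled) in the N/- mice and 929 to 1278 CPM in the N/N mice, without overlap. The sequencing lanes in the labels divide the mice into lane set A (10 N/- and 6 N/N) and lane set B (6 N/- and 10 N/N). No cage had mice in both sets, so lanes cannot be told apart from anything else the mice of a set shared. Mouse 3, labelled an N/N female, had 36 Xist counts, against at least 27239 in the other mice labelled female and at most 598 in the males, and fitted differences are given without it where it moved them most. It held the highest Arntl and Cry1 values of all mice and the highest Clock value of the N/N mice; without it the N/N maxima were 49.0 CPM for Arntl, 33.4 CPM for Cry1 and 115 CPM for Clock, and the set A maxima were 54.6 CPM for Arntl and 34.5 CPM for Cry1. The striatal markers Ppp1r1b (909 to 2118 CPM) and Drd1 (186 to 357 CPM) were high in all mice, while Slc17a7, a marker of cortical glutamatergic neurons, ranged from 200 to 1113 CPM. In such bulk tissue, fewer cells of a type and less RNA per cell cannot be told apart.

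Levels were first set side by side per kilobase of annotated exon, since longer genes collect more reads. Nr1d1 was the highest at 62.5 ± 5.81 CPM per kb (SD, n = 32), and its lowest mouse, at 50.1, lay above every mouse of the other 9 genes. Cry2 (28.2 ± 1.73) and Dbp (26.2 ± 5.11) came next on this scale and did not differ beyond their spread. Per1 (19.7 ± 3.81) and Npas2 (17.8 ± 1.38 CPM per kb) followed and overlapped each other. Per3 (8.86 ± 1.97), Per2 (8.80 ± 2.10), Cry1 (7.99 ± 1.33) and Clock (7.85 ± 0.66 CPM per kb) followed, neighbours in this order differing by less than their SD. Arntl was the lowest, at 4.94 ± 1.11 CPM per kb, and its range of 3.47 to 7.92 overlapped that of Clock, 6.26 to 9.23. Npas2, a paralogue of Clock known for its expression in the forebrain, had a range of 15.5 to 20.9 CPM per kb that did not meet that of Clock. That order rests on length, with an exon union of 4791 bases for Npas2 and 13727 for Clock. In CPM not divided by length, Clock (mean 108) was above Npas2 (mean 85.2), and their ranges overlapped. Lengths are exon unions of an annotation that may differ from the one the counts were made with.

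**Figure D1:**
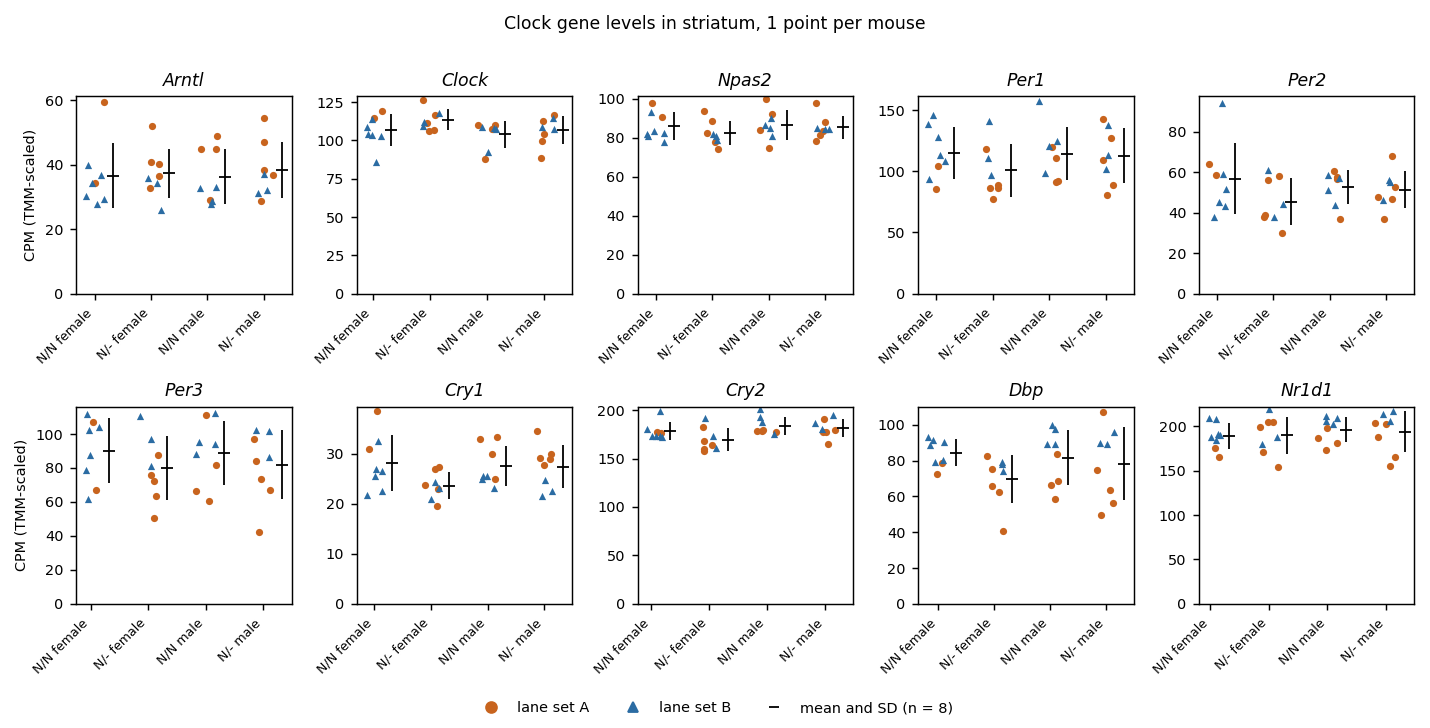
Level of each of the 10 clock genes in CPM (TMM-scaled, y axis from 0) in the 4 groups of genotype and sex (x axis), 1 point per mouse (circles lane set A, triangles lane set B) with the mean and SD of 8 mice. The groups overlap for every gene, and Arntl, Per1, Per2, Per3 and Dbp are more widely scattered within groups than Clock, Npas2, Cry2 and Nr1d1.

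The genes differed in how widely they varied among mice. Per2 ranged 3.15-fold from the lowest mouse to the highest, Per3 2.65-fold, Dbp 2.64-fold, Arntl 2.28-fold and Per1 2.03-fold. Cry1 ranged 1.97-fold, Clock 1.47-fold, Nr1d1 1.42-fold, Npas2 1.34-fold and Cry2 1.28-fold. Set against genes within 0.5 log2 units of the same level, the SD within groups stood at the 98.7th percentile for Per3, the 98.4th for Per2, the 95.9th for Per1 and Dbp and the 95.8th for Arntl. Cry1 stood at the 83.0th percentile, Clock at the 61.9th, Nr1d1 at the 55.2nd and Npas2 at the 51.6th, and Cry2 varied less than most genes of its level, at the 14.6th. Between the 2 sequencing runs of a mouse the SD of log2 CPM was 0.03 to 0.08, against 0.07 to 0.34 within groups of mice.

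The genotype comparison asked whether loss of 1 Cyfip2 copy went with a change of the clock genes. None of the 10 passed an adjusted p of 0.05 in edgeR's quasi-likelihood test with lane set and sex as terms, where 0.0119% of the 16776 genes tested did. At an unadjusted p under 0.05 there was 1 member, Cry1, with 6.46% of all genes below it. The median log2 fold change (N/- over N/N) of the 10 was -0.05, against 0.00 over all genes, with 2 members higher and 8 lower. The other tools also called no member.

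Among the activators, Arntl (chromosome 7, 113178471 to 113314126), the partner that every activator pair shares, was at 27.7 to 59.6 CPM in the N/N mice (median 33.8) and 26.1 to 54.6 in the N/- mice (median 36.7). The groups covered nearly the same range, with a log2 fold change of -0.03 (SE 0.09), which took a positive sign, 0.02, without mouse 3. Clock (chromosome 5, 76209868 to 76305603), a histone acetyltransferase as well as a DNA-binding partner of ARNTL, was at 85.9 to 119 CPM in N/N mice (median 108) and 88.8 to 127 in N/- mice (median 111). Its log2 fold change was 0.06 (SE 0.04), with a 95% interval of -0.03 to 0.14. Npas2 (chromosome 1, 39193702 to 39363240) was at 74.7 to 100.1 CPM in N/N mice (median 84.4) and 74.5 to 97.97 in N/- mice (median 83.1), with a log2 fold change of -0.06 (SE 0.04). All of these groups overlapped.

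Among the Per genes, whose products carry the CRY proteins into the nucleus, Per1 (chromosome 11, 69095108 to 69109965) was at 85.3 to 157 CPM in N/N mice (median 112) and 77.3 to 143 in N/- mice (median 105). The log2 fold change was -0.03 (SE 0.09). Per2 (chromosome 1, 91415977 to 91459351) was at 36.8 to 94.1 CPM in N/N mice (median 56.9) and 29.8 to 67.8 in N/- mice (median 47.4). Its log2 fold change of -0.17 (SE 0.12) had a 95% interval from -0.40 to 0.06, so that a change of the size of its spread could not be told from none. Per3 (chromosome 4, 150997018 to 151044707), whose product is not needed for rhythm in mice, was at 60.7 to 113 CPM in N/N mice (median 91.3) and 42.4 to 111 in N/- mice (median 82.5), with a log2 fold change of -0.08 (SE 0.11). Part of its span, 4714 bases, is shared with Uts2, and the sources used here do not state whether counting used strand.

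Cry1 (chromosome 10, 85131700 to 85185054), the stronger repressor of the cryptochrome pair, was at 21.7 to 38.5 CPM in N/N mice (median 26.05) and 19.5 to 34.5 in N/- mice (median 24.6). The groups overlapped over most of their range. The log2 fold change was -0.19 (SE 0.06, unadjusted p = 0.00477, adjusted p = 0.760 by edgeR), and the adjusted p was 0.459 to 0.9998 over its alternatives. It was -0.22 (SE 0.10) in lane set A, -0.16 (SE 0.07) in lane set B and -0.16 (SE 0.06) without mouse 3. Within cages that held both genotypes, Cry1 was lower in the N/- mice in 8 of 10 cages, and the fit with cage as a block gave a log2 fold change of -0.08 (SE 0.05). The count was not particular to Cry1: Per3 was also lower in 8 of these cages and Dbp in 7, while Clock and Nr1d1 were higher in 7. Cry2 (chromosome 2, 92403646 to 92434085), the paralogue of Cry1, was at 172 to 201 CPM in N/N mice (median 178) and 157 to 195 in N/- mice (median 177), with a log2 fold change of -0.03 (SE 0.03).

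Dbp (chromosome 7, 45705100 to 45710203), a direct target of the activator pair with a large daily swing, was at 58.3 to 99.8 CPM in N/N mice (median 86.3) and 40.4 to 107 in N/- mice (median 75.1). The lowest and the highest mouse were both N/-, and the log2 fold change was -0.08 (SE 0.08). Nr1d1 (chromosome 11, 98767932 to 98775377) was at 165 to 211 CPM in N/N mice (median 191) and 154 to 219 in N/- mice (median 201), with a log2 fold change of 0.03 (SE 0.04). Dbp shares 741 bases with Sphk2 and Nr1d1 shares 1075 bases with Thra, so reads of these stretches may have been split or dropped. The same limit holds for members whose span overlaps non-coding genes or pseudogenes. The longest such overlaps were 23417 bases of Cry2 (D930015M05Rik), 18143 of Arntl (Gm33721) and 14768 of Per2 (Gm35591), and Clock and Npas2 had shorter ones.

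**Figure D2:**
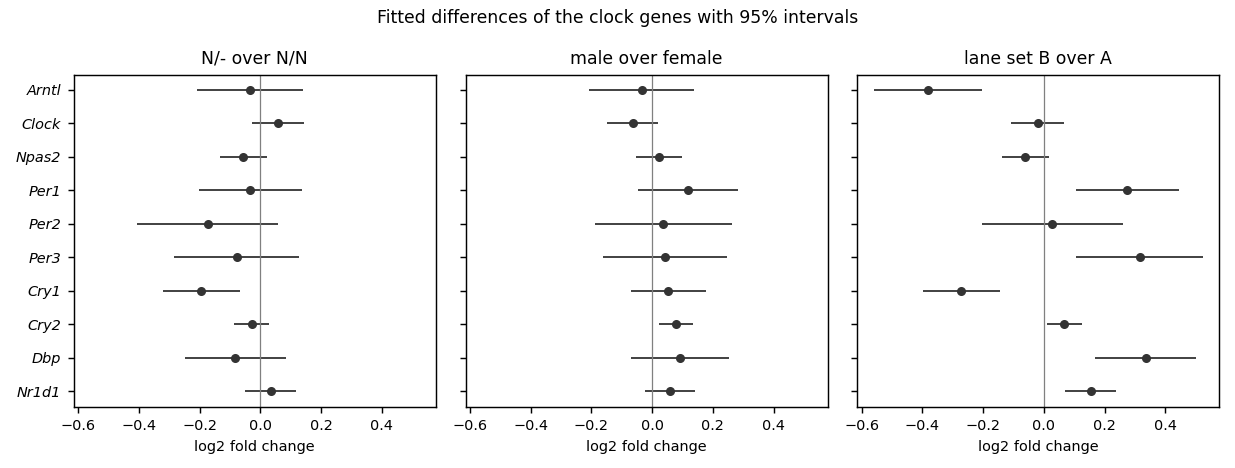
Log2 fold change (x axis) of each clock gene (y axis) in the fit over 32 mice, for N/- over N/N, male over female and lane set B over A, with points for the estimate and bars for its 95% interval. The genotype intervals reach 0 for all genes but Cry1, the sex intervals for all but Cry2, and the lane set intervals lie away from 0 for 7 genes.

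The genotype difference was also fitted within each sex. In females Cry1 was at 21.7 to 38.5 CPM in the 8 N/N mice (median 26.7) and 19.5 to 27.4 in the 8 N/- mice (median 23.4). In males it was at 23.1 to 33.4 CPM (median 25.6) and 21.5 to 34.5 CPM (median 28.3). The groups overlapped in both sexes. The log2 fold change of Cry1 was -0.35 (SE 0.08, unadjusted p = 0.000211, adjusted p = 0.886 by edgeR) in females and -0.05 (SE 0.08) in males. The difference of these effects, the genotype by sex interaction, was 0.30 (SE 0.12, unadjusted p = 0.0132, adjusted p = 0.99997 by edgeR), so a difference between the sexes was not shown. The female value was -0.29 (SE 0.09) without mouse 3, and it was -0.53 (SE 0.14) in lane set A, with 2 N/N females, and -0.19 (SE 0.10) in lane set B. No member passed the adjusted threshold in females or in males, where 0.0119% of genes did in each, or in the interaction, where 0% did. At an unadjusted p under 0.05 there was 1 member in females (3.73% of all genes), none in males (3.5%) and 1 in the interaction (1.74%), Cry1 in both cases. DESeq2 and limma called none either.

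Between the sexes, no member passed the adjusted threshold, which 0.107% of genes passed, and 1 member, Cry2, had an unadjusted p under 0.05, as did 5.36% of all genes. DESeq2 and limma called no member either. Cry2 was at 157 to 199.5 CPM in females (median 173) and 165 to 201 in males (median 180), with a log2 fold change of 0.08 (male over female, SE 0.03, adjusted p = 0.717 by edgeR). Of the other members, Per1 had the largest value, 0.12 (SE 0.08), and Clock the lowest, -0.06 (SE 0.04).

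The lane sets differed more. By edgeR's test no member passed the adjusted threshold for lane set B over A, which 0.161% of all genes passed, but 7 of the 10 had an unadjusted p under 0.05, against 11% of all genes. Lower in set B were Arntl and Cry1, and higher were Dbp, Per3, Per1, Nr1d1 and Cry2. DESeq2 called Arntl, Cry1 and Dbp. Both tests treat mice as independent, but no cage was in both sets and cage mates were alike in several of these genes (below). Their p-values are too small to that extent, as are those for sex, since no cage held both sexes. With cage as a random effect (limma), 7 members and 1592 of 16776 genes had an unadjusted p under 0.05. Of the 8 genes then called, 0 were members. That fit applies the same cage correlation to every gene, and the consensus over genes was 0.22. The estimates for Arntl (0.85), Per3 (0.76), Dbp (0.69), Cry1 (0.68), Per1 (0.50) and Cry2 (0.49) were above it, and that for Nr1d1 (0.23) was near it. For the genes above it, the p-values of this fit are still too small.

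Arntl was at 28.7 to 59.6 CPM in the 16 mice of set A (median 40.6) and 26.1 to 39.9 in the 16 of set B (median 32.5), so that the upper part of set A lay above all of set B. Its log2 fold change was -0.38 (SE 0.09, adjusted p = 0.0721 by edgeR). Cry1 was at 19.5 to 38.5 CPM in set A (median 29.1) and 20.9 to 32.6 in set B (median 24.6), a log2 fold change of -0.27 (SE 0.06, adjusted p = 0.0743 by edgeR). Dbp was at 40.4 to 107 CPM in set A (median 67.4) and 74.3 to 99.8 in set B (median 89.4), a log2 fold change of 0.34 (SE 0.09, adjusted p = 0.104 by edgeR). The set B mice were the narrower group for each of these 3 genes, with an SD of 7.56 CPM for Dbp against 15.4 in set A. With DESeq2 the adjusted p was 0.0132 for Arntl, 0.0197 for Cry1 and 0.0302 for Dbp, and over all alternatives it reached 0.214 for Arntl and Cry1 (without mouse 3) and 0.165 for Dbp. Without mouse 3 the log2 fold change was -0.32 for Arntl and -0.23 for Cry1.

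Per3 was at 42.4 to 111 CPM in set A (median 73.1) and 61.7 to 113 in set B (median 96.0), with a log2 fold change of 0.32 (SE 0.11). Per1 was at 77.3 to 143 CPM in set A (median 91.8) and 93.9 to 157 in set B (median 117), with a log2 fold change of 0.28 (SE 0.09). Nr1d1 was at 154 to 204 CPM in set A (median 184) and 180.2 to 219 in set B (median 206), with a log2 fold change of 0.16 (SE 0.04). The sets overlapped for each of these genes. Cry2 had a log2 fold change of 0.07 (SE 0.03), and Per2 (0.03, SE 0.12), Clock (-0.02, SE 0.04) and Npas2 (-0.06, SE 0.04) had intervals that reached 0. Mitochondrial transcripts and the endoplasmic reticulum chaperones Hspa5 (log2 fold change -0.44, SE 0.09) and Pdia6 (-0.27, SE 0.06) were among the 27 genes that passed the lane set test, and their part in the clock gene values was not tested.

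Other genes of the clock were read from 3 further lists. Of 12 output genes, 7 were higher and 3 lower in set B at an unadjusted p under 0.05, which 11% of all genes reached, none passed the adjusted threshold, and the median log2 fold change was 0.13 against -0.01 over all genes. Ciart, a repressor of the ARNTL pair, had a value of 0.63 (SE 0.14, adjusted p = 0.0625 by edgeR), and Nfil3, which represses at the D-boxes where DBP activates, had -0.36 (SE 0.09, adjusted p = 0.0776 by edgeR). Of 7 further genes of the loop, 1 was higher at the unadjusted threshold: Nr1d2, the paralogue of Nr1d1, at 0.15 (SE 0.05). The median of that list was 0.09, and Rora, which activates Arntl, had 0.13 (SE 0.10). Of 12 genes for turnover of the clock proteins, 1 was lower (Skp1, -0.10, SE 0.04), the median was -0.02, and Fbxl21 had 0.09 (SE 0.09). For genotype none of the 31 genes on these lists passed the adjusted threshold, and 1 (Rora, 0.21, SE 0.10) had an unadjusted p under 0.05, against 6.46% of all genes. The genotype values of Arntl2 (0.16, SE 0.12), Nfil3 (0.10, SE 0.09), Sik1 (0.08, SE 0.08), Cul1 (0.03, SE 0.02) and Fbxw11 (0.03, SE 0.03), the other largest of their lists, did not reach it. For sex none of the 31 passed the adjusted threshold, and 2 had an unadjusted p under 0.05 (5.36% of all genes), Csnk1d at 0.05 (SE 0.02) and Fbxl21 at -0.19 (SE 0.08). The values of Ciart (0.18, SE 0.14), Bhlhe41 (0.12, SE 0.06) and Rora (-0.19, SE 0.10) did not reach it.

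Mice of the same cage had like levels of several clock genes. A test of cage, chosen after the data had been seen, was run over the 23 mice of the 11 cages with at least 2 mice, with lane set, sex and genotype as terms, so that it asks whether cages of the same set and sex differ. It called 4 of the 10 members, Arntl, Per2, Per3 and Dbp, where 0.733% of all genes (123) were called. Arntl ranked 7th of 16776 genes, Per3 9th and Per2 10th. Of the 12 other output genes, 1 was called, Ciart (F = 24.4, adjusted p = 0.000671 by edgeR).

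The cage means given here are those of the 11 cages with at least 2 mice. The cage means of Arntl ran from 26.9 CPM (mice 24 and 25) to 51.8 CPM (mice 1 and 2), and 2 mice of a cage differed by a median of 1.07-fold, against 1.22-fold for 2 mice of other cages of the same sex and set (13 pairs of cage mates and 101 other pairs). The F value was 14.4 (adjusted p = 0.00898 by edgeR). Per2 had cage means of 36.7 CPM (mice 5 and 6) to 62.3 CPM (mice 1 and 2), and cage mates differed by 1.09-fold against 1.29-fold (F = 12.5, adjusted p = 0.0172 by edgeR). Per3 had cage means of 51.6 CPM (mice 5 and 6) to 111 CPM (mice 24 and 25), and cage mates differed by 1.10-fold against 1.25-fold (F = 13.3, adjusted p = 0.0161 by edgeR). Dbp had cage means of 57.4 CPM (mice 1 and 2) to 96.8 CPM (mice 22 and 23), and cage mates differed by 1.08-fold against 1.14-fold (F = 8.10, adjusted p = 0.0477 by edgeR). For these genes, then, a mouse was by the median closer to its cage mates than to other mice of its set and sex. The order of cages was not the same for each: among these 11 cages, that of mice 1 and 2 was highest for Arntl and Per2 and lowest for Dbp.

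The call of Dbp was lost without the cage of mice 1 and 2 (adjusted p = 0.0637 by edgeR), while Per1 then passed (adjusted p = 0.0213, against 0.104 with it). It was also lost with RLE size factors (adjusted p = 0.0510 by edgeR), with which 3 members were called. With the single-mouse cages added, Per3 (adjusted p = 0.0603 by edgeR) and Dbp (0.0855) missed the threshold and 2 members were called. Per1, at F = 4.64, was 1 of the 22% of genes under an unadjusted p of 0.05, and Clock, Npas2, Cry1, Cry2 and Nr1d1 were not. The cage correlation estimated by limma from all 32 mice was 0.87 for Per2, 0.85 for Arntl, 0.76 for Per3, 0.69 for Dbp and 0.68 for Cry1. These lay between the 95.8th and the 99.9th percentile of all genes, whose median was 0.22, and Clock had 0.08. Cage mates are mice with the same cage number in the labels, and the cage cannot be told apart from anything else its mice shared, such as litter or hour of harvest.

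**Figure D3:**
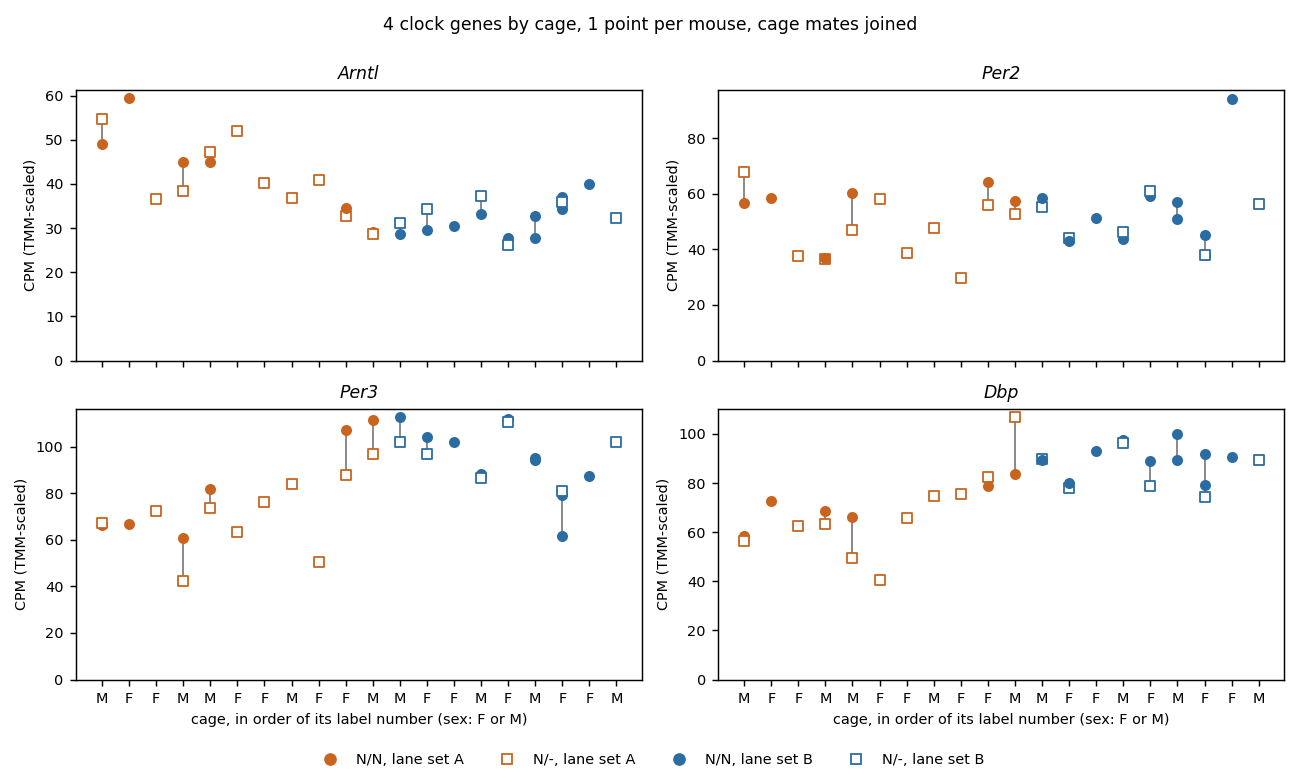
Level of Arntl, Per2, Per3 and Dbp in CPM (TMM-scaled, y axis from 0) by cage (x axis, 20 cages with their sex), 1 point per mouse, with cage mates joined by a line (filled circles N/N, open squares N/-, colour by lane set). Joined points mostly lie close together relative to the differences between cages, as for Arntl at 49.0 and 54.6 CPM in the cage of mice 1 and 2 and 29.03 and 28.7 CPM in that of mice 15 and 16. Some lie farther apart, as for Dbp at 83.7 and 107 CPM in mice 15 and 16 and Per3 at 42.4 and 60.7 CPM in mice 5 and 6.

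How the genes varied together over the 32 mice was described by Pearson r of log2 CPM, with permutation tests adjusted over the 45 pairs. Of these, 19 pairs passed, 14 with a positive and 5 with a negative r, and all 5 negative pairs involved Arntl. Among these pairs, Arntl was high where Dbp, Per3, Nr1d1, Per1 and Cry2 were low, and Cry1 alone was positively related to it. Called pairs reached down to r = 0.41 (Per2 with Cry1), and the share of all gene pairs that would pass was not worked out. The background given below is for an absolute r of at least 0.5, a different cut. The lane sets overlap in the levels of each gene but shift some of them the same way, so values within each set are given beside the pooled ones. The permutations exchange mice freely, although 23 of the 32 share a cage and cage mates were alike in several of these genes, so the p-values over mice are too small to that extent. Over the means of the 20 cages, an alternative added after seeing the data, 18 of the 45 pairs passed, 16 of them among the 19, and all 19 had the same sign.

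Arntl and Dbp had r = -0.72 (rho = -0.69, adjusted permutation p = 0.00018), and -0.76 without the 2 mice farthest from the median of Arntl. Within lane set A it was -0.71 (16 mice), but in lane set B it was 0.05, so the relation did not hold in set B, where both genes covered a narrower range. Arntl and Per3 had r = -0.70 (rho = -0.82, adjusted permutation p = 0.000112), -0.71 without the 2 farthest mice, -0.54 in set A and -0.68 in set B. That pair thus kept its sign and much of its size in both sets. It was called in set B (adjusted permutation p = 0.0217) but not in set A (adjusted permutation p = 0.136). Arntl and Nr1d1 had r = -0.61 (rho = -0.53, adjusted permutation p = 0.00184), -0.56 without the farthest mice, -0.56 in set A and -0.09 in set B. Arntl and Cry1 had r = 0.60 (rho = 0.49, adjusted permutation p = 0.0014) and 0.43 without the farthest mice, 1 of which was mouse 3. Within the sets it was 0.50 in A and 0.29 (rho = 0.09) in B, and neither was called.

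**Figure D4:**
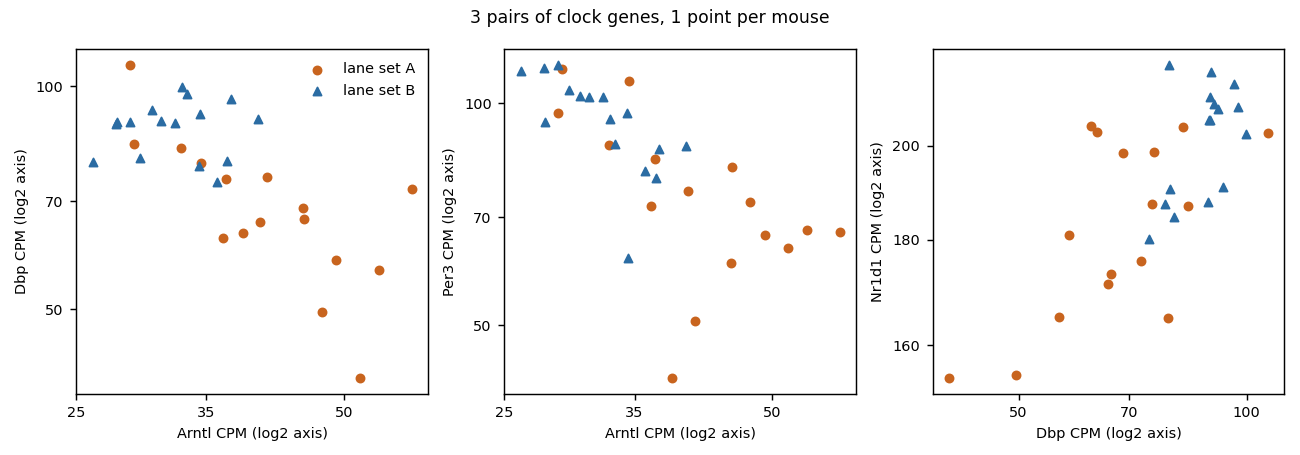
Levels of Dbp against Arntl, Per3 against Arntl and Nr1d1 against Dbp, all in CPM on log2 axes, 1 point per mouse (circles lane set A, triangles lane set B). Arntl and Per3 fall on a downward band in both sets, whereas Arntl and Dbp do so in set A only (r = -0.71 against 0.05 in set B).

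A second group joined the Per genes with Cry2. Per1 and Cry2 had the highest r of all pairs, 0.77 (rho = 0.76, adjusted permutation p = 0.000112), 0.70 without the farthest mice, 0.71 in set A and 0.76 in set B. It was called within each set, and by size of r Per1 ranked 7th of 16775 genes as a match for Cry2. Ranks within this group varied: Per3 ranked 39th as a match for Per1, but Per1 ranked 913th and Per2 2743rd as matches for Per3. Per1 and Per3 had r = 0.72 (rho = 0.72), 0.69 without the farthest mice, 0.61 in set A and 0.69 in set B. Per1 and Per2 had r = 0.63 (rho = 0.59), 0.72 without the farthest mice, 0.55 in set A and 0.82 in set B. Both were called over all mice and in set B.

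Dbp went with Nr1d1, another target of the activator pair, at r = 0.73 (rho = 0.66, adjusted permutation p = 0.000112), 0.57 without the farthest mice, 0.64 in set A and 0.53 in set B. Nr1d1 and Cry2 had r = 0.63 (rho = 0.58), 0.54 without the farthest mice, 0.44 in set A and 0.77 in set B. Over all mice Nr1d1 was in no called pair with a Per gene. Its r was 0.39 with Per1, 0.20 with Per3 and -0.09 with Per2 (-0.51 in set A and 0.41 in set B). The unadjusted p of 1e-05 reached by Arntl with Per3, Per1 with Per3, Per1 with Cry2 and Dbp with Nr1d1 is the smallest that 100000 resamples can give. Of the pairs called over all mice, Clock was in none and Npas2 in 1, with Cry1 (r = 0.48, rho = 0.38, adjusted permutation p = 0.0143 for r and 0.0762 for rho). Without mouse 3 the r of Npas2 with Cry1 was 0.39 and no longer called.

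Fewer pairs passed with fewer mice or with the group means removed. With lane set, sex and genotype means removed 14 of the 45 pairs passed, within set A 2 and within set B 6, and 17 without mouse 3. The 14 included Clock with Per3 (r = 0.52, adjusted permutation p = 0.0132), not called over all mice, whose rho was 0.16 (adjusted permutation p = 0.582). No longer called with means removed were Arntl with Per1 and Cry2, Npas2 with Cry1, Per1 with Dbp, and Per3 with Cry2 and Dbp. Of the 19 pairs called over all mice, 19 had the same sign in set A and 17 in set B, the exceptions being Arntl with Dbp and Per3 with Dbp (0.56 over all mice, 0.47 in set A and -0.04 in set B). As background, an absolute r of at least 0.5 was reached with Arntl by 8.05% of all genes and by 5 of the other 9 members, with Dbp by 7.93% and 5, and with Cry2 by 4.21% and 4. With Nr1d1 it was reached by 2.75% and 3, with Per1 by 14.3% and 5, with Per2 by 10.8% and 2, and with Cry1 by 4.88% and 1. For Per3 it was 31.8% of all genes and 3 members, which is near the background. For Clock it was 15.1% and no member, and for Npas2 4.06% and no member.

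**Figure D5:**
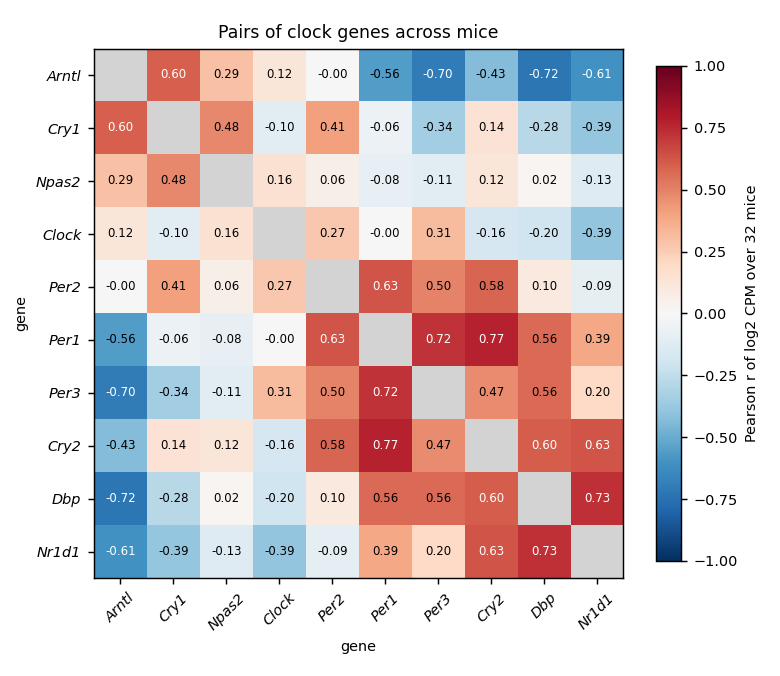
Pearson r of log2 CPM over 32 mice for each pair of clock genes (both axes list the genes), from blue (-1) to red (1). Arntl is negative with Per1, Per3, Cry2, Dbp and Nr1d1 (-0.43 to -0.72). The latter genes are positive with each other (0.20 to 0.77), though Nr1d1 with Per3 (0.20) and with Per1 (0.39) was not called. Clock and Npas2 are pale against most genes.

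The genes whose variation was most like that of Dbp, after removing the means of lane set, sex and genotype, were Erf (r = 0.91), Usp2 (0.80), Nmnat3 (0.80), Tmem138 (0.79) and Gpx6 (0.78) over 32 mice. Erf, an ETS repressor, was at 57.8 to 94.3 CPM, and Usp2, a deubiquitinase known to follow the clock, at 65.0 to 104 CPM. Those most like Arntl were Pdp1 (r = 0.83), C030013G03Rik (0.82), Ubash3b (0.81), Hspa5 (0.79) and Xbp1 (0.78). Pdp1, a phosphatase that activates pyruvate dehydrogenase, was at 133 to 261 CPM. Hspa5, the main chaperone of the endoplasmic reticulum, was at 159 to 358 CPM, and Xbp1 is a factor of the unfolded protein response. These are the top 5 of 16766 genes each and carry no test.

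Each clock gene was also set against the mean level of 4 lists of other genes, 40 relations in all, of which 3 passed. The share of all genes related as closely to these lists was not worked out. The relations below therefore cannot be called particular to the clock genes. Npas2 went with the markers of striatal projection neurons at r = 0.62 (rho = 0.64, adjusted permutation p = 0.0076), 0.75 without the 2 farthest mice, 0.68 in set A and 0.62 in set B. Cry1 went with immediate early genes, which neurons switch on with activity, at r = 0.50 (rho = 0.60, adjusted permutation p = 0.0472), 0.54 without the farthest mice, 0.46 in set A and 0.50 in set B. Dbp went with the projection neuron markers at r = 0.52, but rho was 0.32 (adjusted permutation p = 0.237) and r was 0.26 without the farthest mice, 0.62 in set A and 0.11 in set B, so over all mice the relation rests on the farthest mice. With group means removed its r was 0.53 and passed (adjusted permutation p = 0.038), but its rho of 0.36 did not (adjusted permutation p = 0.198). Within the sets of 16 mice, and over the 20 cage means, none of the 40 passed, and without mouse 3 there were 5. No relation with the glucocorticoid-responsive or the cortical glutamatergic list passed over all mice; the 2 added without mouse 3 were those of the glucocorticoid-responsive list with Arntl (r = -0.44 over all mice, adjusted permutation p = 0.0826, and -0.56 without mouse 3, adjusted permutation p = 0.0115) and with Per1 (0.44 and 0.48, adjusted permutation p = 0.0826 and 0.035).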

How the data were processed

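The authors deposited raw read counts per gene (Entrez identifiers), 1 table per sequencing run, 64 in all. Per the submitters' processing notes, FastQC 0.11.3, Subread, featureCounts, edgeR 3.8.6 and limma 3.22.7 were used with mm10, while the series text names TopHat and HTSeq. The sources used here do not state the annotation, the use of strand or the handling of multimapping reads. The series text gives 8 mice per genotype and the sample labels 16; the labels were followed. Quadruplicate runs are mentioned, and the 2 runs per mouse analysed here (chi-square per degree of freedom 1.14 to 1.41) were summed. The 1904 identifiers without a symbol (0.766% of counts) stayed in totals and tests.

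Of the genes, 16776 passed filterByExpr. Tests used edgeR 4.0.16 in R 4.3.3 (TMM, robust quasi-likelihood F test, Benjamini-Hochberg threshold 0.05) with lane set, sex and genotype, and were tested on simulated data. SE is the absolute log2 fold change over the square root of F. Correlations used log2 CPM with a prior count of 2 and two-sided tests with 100000 resamples. DESeq2 1.42.0 and limma 3.58.1, other scalings, filters, single lane sets, cage terms and leaving out mice 3 or 12 were alternatives. Whether mice came from different litters is not labelled, so p-values measure the spread between these mice. The genes and lists were chosen with earlier results of these data known. Beside the members, the text names the genes of the clock and temperature lists with the largest differences (2 per list for genotype, sex and lane set) or past the test, apart from 1 that is not reported here, and the 5 genes most like Dbp and Arntl. Promoter sequences are RefSeq's for GRCm38.p6, the build also called mm10.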

Additional observations from a re-analysis of the deposited data

Results flagged for a closer look

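In 40 groups of 8 mice (10 genes in 4 groups of genotype and sex), the highest or lowest mouse was compared with its nearest neighbour by Dixon's ratio, with a critical value of 0.526. Chance flags about 1 in 20 such groups, and 3 were found, all in N/N females. Arntl was at 59.6 CPM in mouse 3, with the next mouse at 39.9 CPM, and this is the mouse whose Xist counts went against its label. Per2 was at 94.1 CPM in mouse 31, with the next at 64.2 CPM. Cry2 was at 199.5 CPM in the same mouse 31, with the next at 181 CPM. Mouse 31 also had the highest Per1 level of its group, 146 CPM, and was alone in its cage.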

How the results depend on the processing

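No clock gene passed the adjusted threshold for genotype, sex or the genotype by sex interaction in edgeR's fit or in its alternatives, and the lane set test called 3 with DESeq2 and 0 otherwise. Genotype values near 0 changed sign in some alternatives: Arntl was 0.0288 with cage as a block, 0.0338 in set B, 0.0533 without the lane set term and 0.0232 without mouse 3, and Per1 was 0.0158 with cage as a block, 0.0187 with the cortical score as covariate and 0.0274 in set A. Clock was -0.0156 in set A, Per3 0.0355 in set B and Nr1d1 -0.00505 without the lane set term. The lane set value of Per2 was -0.00222 without mouse 12. Over all genes, the genotype test called 5 in set B against 2, within-female tests called 1 in set A, and within-male tests 1 in each set. The sex test called 28 with DESeq2 and 7 in set A, against 18. The lane set test called 97 with DESeq2, 8 with cage as a random effect, 11 without mouse 12 and 8 without mouse 3, against 27. The alternatives of the cage test were chosen after seeing the data. The cage test called 2 members and 13 genes with all cages, 35 genes with RLE size factors and 245 without the cage of mice 1 and 2, against 123. Of the pairs, 2 passed in set A and 6 in set B, where Arntl with Dbp (0.04996) and Per3 with Dbp (-0.0369) changed sign, and of the list relations 0 passed in either set, 0 over the 20 cage means and 5 without mouse 3, the last 2 alternatives added after seeing the data. Smaller samples were used within sets, and the cause of the other shifts was not tested. Mouse numbers are not shared between groups, so pairing by replicate number was not used, and the paired analysis was the fit with cage as a block over the 10 cages with both genotypes (21 mice), which called 0 clock genes for genotype. Counting error limits little here, since each clock gene had at least 589 counts per mouse.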

Other observations

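Other gene lists were read beside the clock genes. Of 7 genes linked to temperature, the lane set comparison had 1 higher in set B at an unadjusted p under 0.05 (Cirbp, a cold-inducible RNA-binding protein, log2 fold change 0.20, SE 0.06) and 3 lower, where 11% of all genes reached that p, and none passed the adjusted threshold. The largest values were those of the heat shock genes Hspa1b (-0.80, SE 0.24) and Hspa1a (-0.32, SE 0.20). For genotype these values were 0.02 (SE 0.23) and 0.10 (SE 0.20), Hsf1 had -0.07 (SE 0.04), and none of the 7 had an unadjusted p under 0.05. For sex Hspa1b had 0.25 (SE 0.23) and Rbm3 0.12 (SE 0.09), and none of the 7 reached that p. In the test of cage, Cirbp and Hsph1 of this list passed, as did Cldn5 of the endothelial list. The lists for the clock loop, clock protein turnover, glucocorticoid response, immediate early genes, striatal projection neurons, cortical glutamatergic neurons, astrocytes, oligodendrocytes, microglia and choroid plexus had 0 genes past the adjusted threshold of that test, while 0 to 6 genes of each, the most being 6 of 8 oligodendrocyte genes, had an unadjusted p under 0.05, where 22% of all genes did.

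For genotype, the projection neuron list had 16 of 16 genes lower in N/- mice (7 at an unadjusted p under 0.05, against 6.46% of all genes, median log2 fold change -0.15) and the cortical list 14 of 16 higher (5 at an unadjusted p under 0.05, median 0.27), with none past the adjusted threshold. Their part in the values of the clock genes was not tested beyond the fit with the cortical score as covariate, in which Cry1 had a genotype value of -0.16 (SE 0.06).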
